A study of Homo sapiens with 2 samples.

Results

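RBMS3 is an RNA-binding protein, and CLIP-seq reads out where it touches RNA by fixing protein to RNA with ultraviolet light and sequencing the RNA that is pulled down. The RBMS3-binding sites described here are those on the mitochondrial genome (chrM, hg38), taken as every row of the deposited site list on that chromosome. They were 220 of the 27706 listed sites (0.794%), 198 of them on the plus and 22 on the minus strand. FLAG-tagged RBMS3 was expressed in the triple-negative breast cancer cell line MDA-MB-231, and there was 1 group of 2 biological replicates. The source label of replicate 2 gives another line number than its title, and the title was followed. Both replicates carry the tagged protein, no library without it was analysed here, and sites were called on tags (unique sequenced fragments) pooled over both. No value below therefore has an error between replicates, and no value separates RBMS3 from RNA that is pulled down without it. Each site is a deleted base, which the method reads as the place where reverse transcriptase skipped a crosslinked nucleotide.

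Human mitochondria transcribe their small circular genome into long RNAs from both strands. These are cut, mostly at the tRNAs that lie between the other genes, into 2 rRNAs, 22 tRNAs and the mRNAs of 13 coding regions. The mRNAs encode subunits of the respiratory chain and of ATP synthase. Most of them receive a short poly(A) tail, and in several this tail supplies the last bases of the stop codon. The mRNA ends are set by cutting and do not need the nuclear poly(A) signal AATAAA. In the annotation (GENCODE release 44) each mitochondrial mRNA gene is given by its coding region. The annotated end is therefore not always the end of the RNA, as for MT-CO1, MT-CO2 and MT-ND5, whose transcripts run on past it. The annotated ends of MT-ATP8 and MT-ND4L lie within the overlapping coding regions of MT-ATP6 and MT-ND4.

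Most mRNA sites lay within 100 nt of an annotated 3′ end, so the last 30 bases of the mRNAs and of MT-RNR2, the RNA of the large mitochondrial ribosomal subunit, are given to show how sites fall there. They are shown for the 7 genes with a site there, as the reference reads on the transcript strand from 5′ to 3′, with each listed deletion in a capital. Within a run of the same base a deletion cannot be placed exactly and the list holds the lowest coordinate, which was the case for all 141 mitochondrial sites in such runs.
MT-ND2 (chrM:5482-5511, plus strand): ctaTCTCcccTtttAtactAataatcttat
MT-ATP6 (chrM:9178-9207, plus strand): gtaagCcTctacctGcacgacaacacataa
MT-CO3 (chrM:9961-9990, plus strand): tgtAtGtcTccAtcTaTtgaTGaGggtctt
MT-ND3 (chrM:10375-10404, plus strand): gactacAaaaaggaTtagaCTGaaccgaat
MT-ND4 (chrM:12108-12137, plus strand): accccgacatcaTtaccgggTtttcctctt
MT-CYB (chrM:15858-15887, plus strand): taaTtgAaaaCAaaatacTcAaatgggcct
MT-RNR2 (chrM:3200-3229, plus strand): tataCccacacccAcccaagaacaGggttt

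These stretches held 35 sites in all, 32 of them in mRNAs, from 2 in MT-ND4 to 9 in MT-CO3. None of them contains AATAAA.

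The site with the most deletions had to be set apart. At 1 position inside MT-RNR2, 122 nt from its 3′ end, 4971 of 22000 tags carried the deletion (22.6%), rank 3 in the whole list. The reference has N there, a placeholder that keeps an older numbering, and mitochondrial DNA has no base at this place. The sequence around it is shown with the placeholder in a capital.
MT-RNR2 placeholder site (chrM:3097-3117, plus strand): ttctatctacNttcaaattcc
The remaining 17029 tags (77.4%) were aligned without a deletion called at the placeholder. The positions just before it, 3105 and 3106, were also listed, with deletions in 106 of 20341 tags (0.521%) and 65 of 20519 tags (0.317%). The placeholder alone held 14.8% of the 33640 deletions at mitochondrial sites. It was left out of all values below unless stated, which leaves 219 sites.

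Mitochondrial sites lay in dense clusters with many tags, and counted 1 by 1 they had deletions in few of those tags. A site had a median of 43418 tags (quartiles 13934.5 and 60476, range 34 to 96425) and a median of 76 deletions (quartiles 57 and 123, range 16 to 1167). The median percentage of tags with the deletion was 0.277% (quartiles 0.146 and 0.626%). With the placeholder counted, the medians were 43199.5 tags and 0.278%. Sites on nuclear chromosomes had a median of 2833.5 tags, 54 deletions and 2.99%. Many nuclear sites rest on few tags with high percentages, so the 19207 nuclear sites under 30% are the closer comparison. Their medians were 6078 tags, 71 deletions and 1.63%. The percentage was under 1% at 177 mitochondrial sites (80.8%), at 34.8% of the nuclear sites under 30% and at 24.3% of all 27486 nuclear sites. With only the site with the most deletions kept from each cluster (sites within 50 nt of each other), the mitochondrial medians were 5650.5 tags and 1.56% over 40 sites, the placeholder included. The same choice among the nuclear sites under 30% gave 2914.5 tags and 3.32% over 7844 sites. These differences are described without a test, because the list is a single pooled result.

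**Figure D1:**
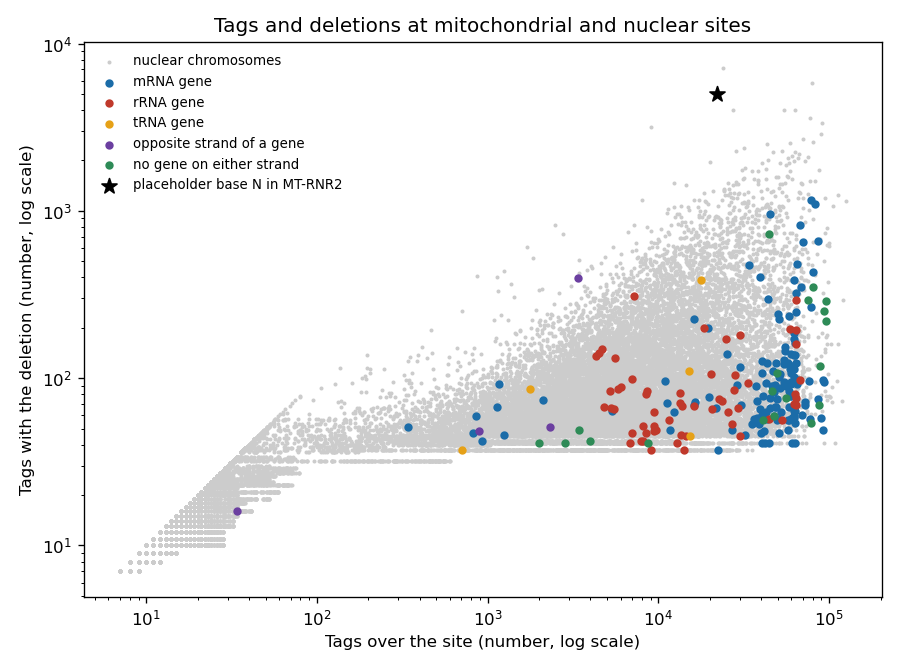
Number of tags over each site (x axis, log scale) against the number that carry the deletion (y axis, log scale) for nuclear sites (grey) and for mitochondrial sites coloured by gene class. Most mitochondrial sites lie at the right, with a median of 43418 tags, and the star marks the placeholder at 4971 of 22000 tags.

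A low percentage can enter the list only where tags are many. The fewest deletions at a mitochondrial site whose percentage was under 30% were 37. The percentage fell with the number of tags across the 219 sites (Spearman's rho = -0.65, given as a description, since tags are the denominator of the percentage). Percentages of neighbouring sites were therefore compared within an RNA where tags were alike. Where groups differ in tags, as near and far from an end or mitochondrial and nuclear, their percentages are not a like comparison. The number of sites in a gene also reflects its tags. Tags were known only at listed sites. The level of each RNA was not analysed here, and its part in the number of sites was not tested.

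Intervals given from here on are 95% Wilson intervals of a share and cover counting error only. Of the 219 sites, 132 lay in mRNA genes (60.3%, 95% Wilson interval 53.7 to 66.5%), 59 in rRNA genes (26.9%, interval 21.5 to 33.2%) and 5 in tRNA genes (2.28%, interval 0.979 to 5.23%). On the strand opposite to a gene there were 4 sites, and 19 lay where neither strand has an annotated gene. With 1 site kept per cluster the order of mRNA and rRNA turned, to 37.5% in mRNA genes and 40% in rRNA genes of 40 sites. Per length the order differed too, with 23.5 sites per kb in rRNA genes, 11.6 in mRNA genes, 7.84 in sequence without a gene, 3.32 in tRNA genes and 0.261 opposite to genes. Sites within 50 nt of each other formed 40 clusters, the placeholder included, of which 21 were single sites. Another 9 clusters had 10 or more sites each and together held 172 of the 220 sites (78.2%). All mRNA sites were on the plus strand. MT-ND6, a complex I subunit and the only mRNA of the minus strand, had none.

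Among the 13 mRNA genes, 9 held sites and 6 held 125 of the 132. MT-ND2 and MT-ND4, both subunits of complex I, had 27 sites each. MT-CO3, a subunit of cytochrome c oxidase, had 24, MT-CYB, the cytochrome b of complex III, had 17, MT-ATP6, a subunit of ATP synthase, had 16, and MT-ND3 of complex I had 14. MT-CO2 of cytochrome c oxidase had 4, MT-ND5 had 2 and MT-ND4L had 1. No site was listed in MT-ND1, MT-CO1, MT-ATP8 or MT-ND6. Per length MT-ND3 was highest, at 40.5 sites per kb, followed by MT-CO3 at 30.6 and MT-ND2 at 25.9, and MT-ND5 was lowest of those with a site, at 1.10.

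**Figure D2:**
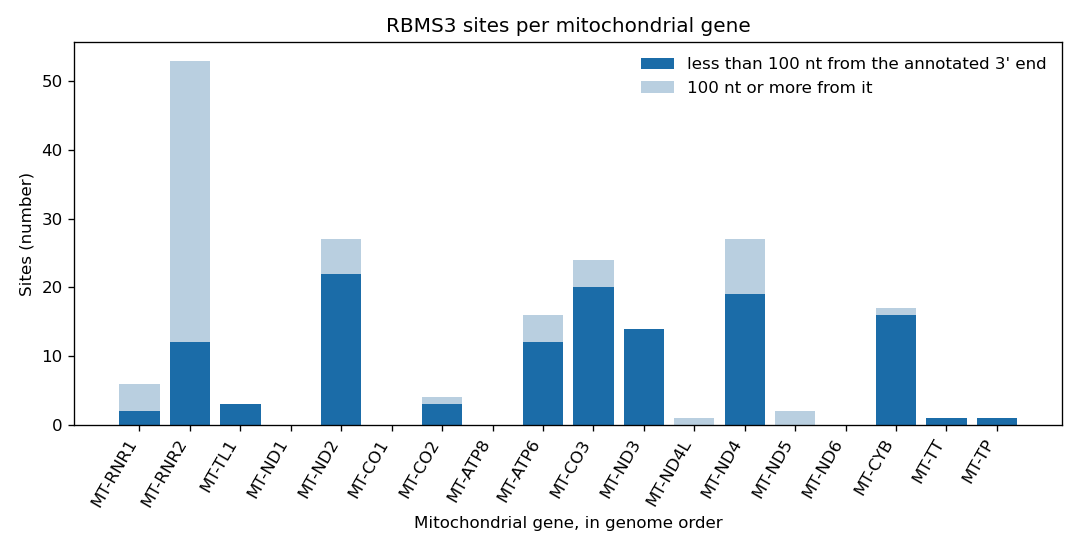
Number of sites (y axis) in each mitochondrial rRNA and mRNA gene and in the tRNA genes with a site, in genome order, without the placeholder. Dark bars count sites less than 100 nt from the annotated 3′ end, which hold 106 of the 132 mRNA sites but 12 of the 53 in MT-RNR2.

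Counted 1 by 1, most mRNA sites lay near the 3′ ends. The median distance to the annotated end was 47 nt (quartiles 30 and 82.25 nt), whereas the median over all mRNA bases was 484 nt. In all, 106 of the 132 sites (80.3%, 95% Wilson interval 72.7 to 86.2%) were less than 100 nt from the end, in 1300 of 11341 bases (11.5%). With 1 site kept per cluster this was 7 of 15 sites (46.7%, interval 24.8 to 69.9%), so the majority rests on dense clusters at the ends. In contrast, 7 sites were 200 nt or more from the end. These 7 had 341 to 1252 tags, and deletions in 3.67 to 15.0% of them. The sites near the ends belonged to 7 mRNAs, with 22 in MT-ND2, 20 in MT-CO3, 19 in MT-ND4, 16 in MT-CYB, 14 in MT-ND3, 12 in MT-ATP6 and 3 in MT-CO2. All 14 sites of MT-ND3 were near its end. In the 6 genes whose last codon is incomplete in the genome, ending in T or TA, 91 of these 106 sites were found. They are 6 of the 13 genes, each with the same length of 100 nt counted near its end. MT-ND1 is the 1 of these 6 without any site. Of the 7 genes with a complete last codon, 2 had a site near the end. MT-CO1, MT-CO2 and MT-ND5, whose annotated end is not the end of the RNA, are all among these 7. MT-ATP8 and MT-ND4L, whose annotated ends lie within the coding regions of MT-ATP6 and MT-ND4, are among these 7 too. The groups thus differ in more than the last codon, and its part was not tested.

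Tags rose toward the same ends. Near the end a site had a median of 57376 tags (range 16143 to 93315) and farther away a median of 14263 (range 341 to 47091). In MT-CO3 the site 145 nt from the end had 5357 tags, the site at 21 nt had 93315 and the last site, at 6 nt, had 68464. MT-CYB had 19422 tags at 103 nt, 62380 at 26 nt and 44956 at 9 nt. The site with the most tags lay 19 to 47 nt from the end in all 6 mRNAs with 14 or more sites, and the last site of each had fewer tags. Poly(A) tails were added to the bound RNA and reverse transcription started from oligo(dT), so RNA that already carries a tail can be primed at its own end. In the deposited list these ends and ends made by RNase cannot be told apart.

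**Figure D3:**
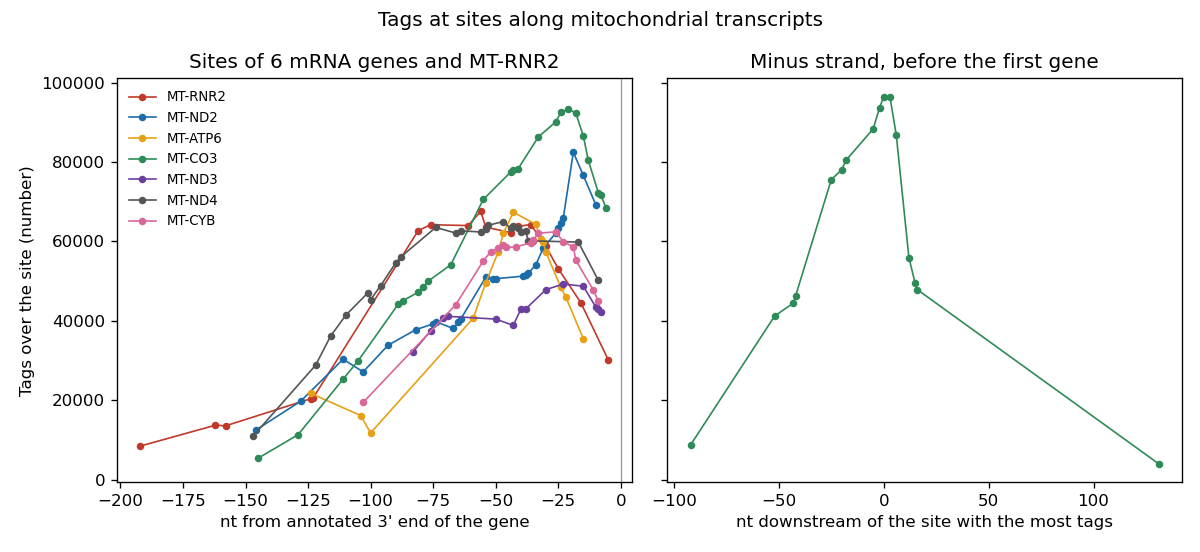
Number of tags (y axis) at each site within 200 nt of the annotated 3′ end of 6 mRNA genes and MT-RNR2 (left, x axis in nt from the end) and at minus-strand sites before the first gene (right, x axis in nt from the site with the most tags, in the direction of transcription). In MT-CO3 tags rise from 5357 to 93315 and are 68464 at the last site, and on the minus strand they peak at 96425.

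Within an end, neighbouring sites with like tags had unlike percentages. In MT-CO3 the site at 9903 carried the deletion in 956 of 45089 tags (2.12%, 95% Wilson interval 1.99 to 2.26%), the highest percentage near an mRNA end. The site at 9901, just before it, had 41 of 44143 tags (0.0929%, interval 0.0685 to 0.126%). Also in MT-CO3, position 9966 had 49 of 92458 tags (0.0530%, interval 0.0401 to 0.0701%), the lowest of all mitochondrial sites. Position 9964 next to it (58 of 90116 tags, 0.0644%) and position 5486 in MT-ND2 (41 of 63340 tags, 0.0647%, interval 0.0477 to 0.0878%) were the next lowest. The base after it, at 5487, had 481 of 64597 tags (0.745%, interval 0.681 to 0.814%).

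**Figure D4:**
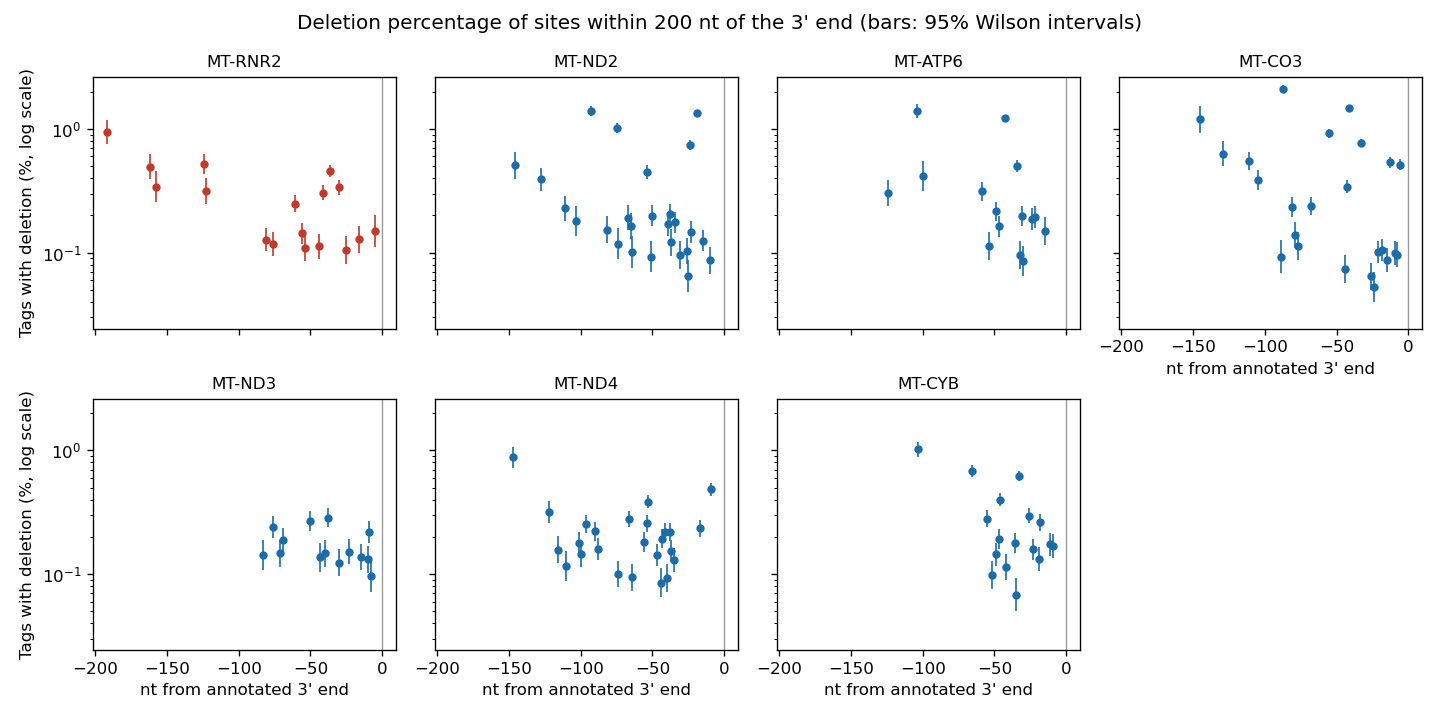
Percentage of tags with the deletion (y axis, log scale) against the distance from the annotated 3′ end in nt (x axis) for sites within 200 nt of the end of MT-RNR2 (red) and 6 mRNA genes (blue), with 95% Wilson intervals that cover counting error only. Single sites stand above their neighbours, as at 87 nt from the end of MT-CO3 with 2.12%.

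The 10 sites with the most deletions were 5 in MT-CO3, 3 in MT-ND2, 1 in MT-ATP6 and 1 on the minus strand. In all 10 the deleted base was T (U in the RNA). In 8 it lay in a run of 3 or more T, where 1 site can collect the deletions of several bases. They are shown with 10 nt on each side, with the run that holds the deletion in capitals.
MT-CO3 at 9949: gtagatgtggTTTgactattt
MT-ND2 at 5492: ctatctccccTTTTatactaa
MT-CO3 at 9903: caaacatcacTTTggcttcga
MT-ATP6 at 9164: caagcctacgTTTTcacactt
minus strand at 286: ggaaaTTTTTTgttatgatgt
MT-CO3 at 9957: ggtttgactaTTTctgtatgt
MT-CO3 at 9935: gatactggcaTTTTgtagatg
MT-ND2 at 5487: cctacctatcTccccttttat
MT-ND2 at 5418: aaaatgacagTTTgaacatac
MT-CO3 at 9977: tctccatctaTTgatgagggt
Deletions were counted in 1167 of 78343 tags at 9949 (1.49%, 95% Wilson interval 1.41 to 1.58%). At 5492 they were counted in 1105 of 82444 tags (1.34%, interval 1.26 to 1.42%). Position 9903 was given above. All 3 lie in runs of T, and among their intervals those of 9949 and 5492 overlap.

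The other 7 had fewer deletions, though not always a lower percentage. At 9164 in MT-ATP6, 823 of 67348 tags carried the deletion (1.22%, interval 1.14 to 1.31%). Position 286 on the minus strand had 729 of 44478 tags (1.64%, interval 1.53 to 1.76%). In MT-CO3, position 9957 had 660 of 86277 tags (0.765%) and position 9935 had 649 of 70541 tags (0.920%). The lone T at 5487 had 481 of 64597 tags (0.745%). Position 5418 had 474 of 33843 tags (1.40%) and position 9977 had 431 of 80371 tags (0.536%).

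Over all 219 sites, T was the deleted base at 103 (47.0%, 95% Wilson interval 40.5 to 53.6%) and made up 27.4% of the positions within 25 nt. A was deleted at 48 sites (21.9%, flanking 30.7%), C at 44 (20.1%, flanking 28.7%) and G at 24 (11.0%, flanking 13.2%). Among the 72 sites with 100 or more deletions the share of T was 59.7%. Among bases outside runs, T was deleted at 35 of 78 sites (44.9%, interval 34.3 to 55.9%). T made up 28.6% of their flanking positions, which include positions in runs. The intervals treat sites as independent, which sites of 1 RNA are not. At the nuclear sites under 30%, T was deleted at 65.3%, A at 22.5%, C at 6.82% and G at 5.37%. Cytosine is common on this strand, at 31.3% of the plus-strand bases of the mitochondrial genome.

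**Figure D5:**
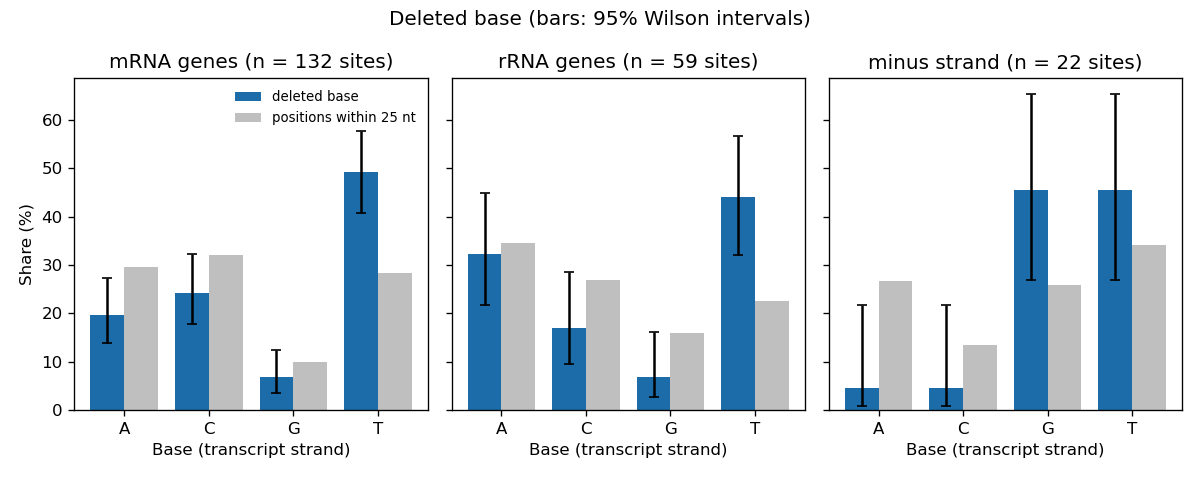
Share (y axis, %) of each base among deleted bases (blue, with 95% Wilson intervals over sites) and among positions within 25 nt (grey) for sites in mRNA genes, in rRNA genes and on the minus strand. T is deleted at 49.2% of mRNA sites against 28.4% of flanking positions, and at 44.1% of rRNA sites against 22.6%.

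The percentage differed with runs of T. Near mRNA ends, 9 sites with the deletion in a run of 3 or more T had a median of 1.22% of tags with the deletion (range 0.165 to 2.12%). The 14 sites in a run of 2 T had a median of 0.256% (range 0.138 to 0.677%), and the 24 lone T a median of 0.169% (range 0.0679 to 0.745%). Their median tags were 67348, 51616 and 62019. The 59 sites with another base had a median of 0.147% (range 0.0530 to 1.02%). The ranges overlap. Runs of 3 or more of any base held 68 of the 219 sites (31.1%) and 20.8% of the bases of the genome. A deletion in a run is listed only at its lowest coordinate. The share of bases is therefore larger than the share of places where a site could be listed.

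The motif reported for RBMS3, the AUA motif (A, G or T, then A or T, then ATA, then A or T, then A), was searched on the transcript strand within 25 nt of the deletion, in windows of 51 nt. It was present in 17 of 219 windows (7.76%, 95% Wilson interval 4.90 to 12.1%). Of all windows of that length on both strands of the mitochondrial genome, 5.30% held it. AATAAA, which some of its matches contain, was in 7 windows (3.20%, interval 1.56 to 6.45%) and in 3.03% of all mitochondrial windows. The variant ATTAAA was in 8 windows (3.65%), all in rRNA genes, and in 2.05% of all. In rRNA genes it was in 13.6% of the 59 site windows and in 6.41% of all windows centred there. On the plus strand alone, the AUA motif, AATAAA and ATTAAA were in 8.63%, 3.55% and 4.06% of site windows. All windows of that strand held them at 5.41%, 3.84% and 3.27%. At the nuclear sites under 30%, the AUA motif was in 56.2% of windows and AATAAA in 58.3%. Near mRNA ends 11 of 106 windows held the AUA motif (10.4%, interval 5.89 to 17.6%), compared with 12.5% of all windows centred in those stretches. None of the 22 minus-strand windows held it, which allows a share of up to 14.9% (Wilson interval).

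The plus strand has 21 matches to the AUA motif, and 8 of them have a site within 25 nt. Only 2 of these 8 include a listed deletion, AAATAAA at 5404 to 5410 in MT-ND2, with the site at 5408, and AAATAAA at 1735 to 1741 in MT-RNR2, with the site at 1735. Another 4 lie in the tRNA that follows an mRNA with an end cluster, in MT-TG after MT-CO3, MT-TR after MT-ND3, MT-TH after MT-ND4 and MT-TT after MT-CYB. The gap from the matches in MT-TG, MT-TR and MT-TH to the nearest site, which lies in the mRNA before, was 16, 11 and 12 nt. In MT-TT the gap was 1 nt, to the site at 15896, which lies in MT-TT itself and not in MT-CYB. In MT-TR the match reads GTATATA and in MT-TH it reads AAATATA. Such a match is a description of the window, and a window that reaches past the end of an mRNA need not be part of the same RNA.

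The large rRNA had sites along its length and the small rRNA had few. MT-RNR2 held 53 sites (34.0 per kb) and MT-RNR1, the RNA of the small subunit, held 6 (6.29 per kb). In MT-RNR2 only 12 of the 53 sites (22.6%) were less than 100 nt from the 3′ end, and sites were found from 5 to 1529 nt from it. The 12 near the end had a median of 63136.5 tags (range 30087 to 67557) and 0.136% of tags with the deletion. The other 41 had a median of 12793 tags (range 4330 to 33351) and 0.534%. Tags were thus higher at the end of this rRNA too, as in the mRNAs, although its sites were not confined to the end.

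The MT-RNR2 site with the most deletions after the placeholder was at 2053, with 308 of 7239 tags (4.25%, 95% Wilson interval 3.81 to 4.74%). Sites at 2978 (135 of 4330 tags, 3.12%, interval 2.64 to 3.68%) and 2561 (132 of 5596 tags, 2.36%, interval 1.99 to 2.79%) also lost a base of a run of 3 T. Some other MT-RNR2 sites with more deletions than 2978 lost another base, such as a C at 2282 (200 of 18401 tags, 1.09%). The 3 shown had the most deletions of the MT-RNR2 sites in runs of 3 T. The other MT-RNR2 sites in such runs had lower percentages, as at 2157 (84 of 5179 tags, 1.62%) and 2806 (48 of 9473 tags, 0.507%).
MT-RNR2 at 2053: caactttaaaTTTgcccacag
MT-RNR2 at 2978: aacaatagggTTTacgacctc
MT-RNR2 at 2561: gtgacacatgTTTaacggccg
In MT-RNR1 the site with the most deletions was at 918, with a deleted A in 142 of 4457 tags (3.19%, interval 2.71 to 3.74%). Its 6 sites had 4457 to 9704 tags.

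Of the 22 tRNA genes, 19 had no site. MT-TL1, the leucine tRNA just after MT-RNR2, had 3. A G was lost in 385 of 17691 tags at 3283 (2.18%, 95% Wilson interval 1.97 to 2.40%). A T was lost in 111 of 15199 tags at 3271 (0.730%, interval 0.607 to 0.879%). An A was lost in 45 of 15345 tags at 3288 (0.293%, interval 0.219 to 0.392%). The 3 intervals do not overlap at nearly the same number of tags. MT-TT, the threonine tRNA, had 1 site at 15896 (37 of 707 tags, 5.23%, interval 3.82 to 7.13%), and MT-TP, the proline tRNA of the minus strand, had 1 at 15989 (86 of 1769 tags, 4.86%, interval 3.95 to 5.97%).

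The minus strand had a dense group of its own. Before the first gene, in the control region that holds the promoters and the origin of heavy-strand replication, 16 sites lay between 112 and 335, with 15 of them in 1 cluster of 109 nt. Transcription from the light-strand promoter runs through this region toward lower coordinates and is known to give a short polyadenylated RNA. GENCODE has no gene here. In that direction tags rose from 8742 at 335 to 44478 at 286, 80419 at 261 and 96425 at 243, the highest number at any mitochondrial site. They then fell to 47842 at 227 and 3978 at 112. The site at 286 had the highest percentage of the 16, and position 263 (54 of 78053 tags, 0.0692%) the lowest. Deleted bases were 8 T, 6 G, 1 A and 1 C. A further 3 sites lay after the last gene, from 16363 to 16415, with 1988 to 3416 tags and 1.43 to 2.06% of them with the deletion.

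Only 4 sites were opposite to a gene. On the plus strand, position 14425, opposite to MT-ND6 and downstream of the coding region of MT-ND5, had a deletion in a run of 5 C in 395 of 3383 tags (11.7%, 95% Wilson interval 10.6 to 12.8%). It is shown because it had the most deletions of the sites outside annotated genes on the plus strand.
plus strand at 14425: caacccctgaCCCCCatgcct
Position 14722, opposite to MT-TE, had 51 of 2305 tags (2.21%). On the minus strand, position 3259, opposite to MT-TL1, had 48 of 890 tags (5.39%), and position 10473, opposite to MT-ND4L, had 16 of 34 tags (47.1%, interval 31.5 to 63.3%), the highest percentage and the fewest tags of all mitochondrial sites.

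MT-ND5, MT-ND4L and MT-CO2 had few sites. In MT-ND5, 51 of 341 tags at 13488 (15.0%, 95% Wilson interval 11.6 to 19.1%) and 47 of 816 tags at 13023 (5.76%) carried the deletion. The site of MT-ND4L, at 10480, had 92 of 1157 tags (7.95%, interval 6.53 to 9.65%). MT-CO2 had its most deletions at 8134, in 74 of 2120 tags (3.49%, interval 2.79 to 4.36%), and its other 3 sites, 43 to 69 nt from the annotated end, had 16143 to 22428 tags. For the genes with many sites not yet given by their top site, MT-CYB had 386 of 62060 tags at 15854 (0.622%), MT-ND4 had 247 of 64031 at 12084 (0.386%) and MT-ND3 had 123 of 42981 at 10366 (0.286%).

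Nuclear chromosomes hold copies of mitochondrial DNA. An exact nuclear copy of the 51-nt window existed for 4 of the 219 sites, at 1569 in MT-RNR1, 2497 in MT-RNR2, and 9103 and 9107 in MT-ATP6. With at most 1 mismatch allowed, at least 44 of the 219 windows had a nuclear copy. Only matches aligned over the whole 51-nt window were counted, so copies with a mismatch near a window end can be missed. Nuclear segments similar to mitochondrial DNA numbered 468 and covered 498099 nt. They held 5 of the 27486 listed nuclear sites (0.0182%), with 24 to 2404 tags each. The share of the nuclear genome in these segments was not computed, so the 5 sites are not read as few or many.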

How the data were processed

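CLIP-seq was performed on 2 replicates of MDA-MB-231 cells with FLAG-tagged RBMS3. Per the study's methods, the authors appended molecular identifiers, aligned reads to hg38, pooled unique tags and called deletion sites with the CLIP Tool Kit at an FDR under 10% and a fold over 10 whose definition is not given in the sources used here. The deposited table gives counts per site, the tags and the tags with the deletion, not normalized. Another deposited column holds the same counts in a text name. Library depths were not analysed here, so depth is given per site.

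The deletion is the centre of each 21-nt interval, counted from 1, which was checked at the placeholder N of the hg38 reference. Sites were placed by base and strand on GENCODE release 44, in the order rRNA, tRNA, mRNA, and in overlapping mRNAs on that with the nearer 3′ end. Every gene with a site is named, and sites are given in full where they have the most deletions in a gene or among all, or the 3 highest or lowest percentages. A few further sites (for example 2978, 2561, 9901 and 263) were chosen after their values were seen. The members and lists were chosen with earlier results of these data known. No test was run, since there is 1 pooled list. Wilson intervals (95%) cover counting error only. Nuclear copies were sought with blastn 2.17.0. The functions were tested on simulated data, where 200 of 200 planted sites and motifs were recovered. Scripts ran under Python 3.11.15 with matplotlib 3.10.9, pysam 0.24.0, samtools 1.23.1, scipy 1.17.1 and numpy 2.4.6. Alternatives were minimums on deletions and percentages, a single site per cluster, strand ignored, interval overlap, other motif windows and cores, the other end of a run and 21-nt intervals.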

Additional observations from a re-analysis of the deposited data

How the results depend on the processing

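Of 56 alternative values, 31 stayed within 1.5 times a count or within the 95% interval of a share or median, among them all with at least 20 or at least 50 deletions, with strand ignored and with the deletion at the other end of its run. Keeping sites with deletions in at least 10% of tags left 4 sites, with medians of 18.8% and 1862 tags. Without the placeholder they were 3, with mRNA and T shares of 33.3% each and rRNA, tRNA, AUA and AATAAA shares of 0. With 1 site per cluster there were 40 sites, with medians of 1.56% and 5650.5 tags, mRNA and rRNA shares of 37.5% and 40%, and AUA and AATAAA shares of 0. The share of mRNA sites near the 3′ end was then 46.7% (7 of 15 kept sites), an alternative chosen after seeing the data, as was a limit of 50 nt, which gave 52.3%. Any overlap of the interval gave a tRNA share of 5.48%. The AUA share was 1.83% with 10 nt on each side, 24.2% with 50 nt and 21.5% with a shorter core, and the AATAAA share 1.37% and 7.31% with 10 and 50 nt. Exact nuclear copies of the 21-nt interval existed for 54 sites. With 1 site per cluster the order of the mRNA and rRNA shares thus turned, and the share near the 3′ end was no longer a majority. No paired analysis was possible because the replicates of the single group are pooled, and neither could be left out. Depth limits low percentages to sites with many tags.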
